A study of Mus musculus with 47 samples.

Results

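The genes described here are the Notch target genes Heyl, Hey1, Hes1, Dtx4, Nrarp and Notch3 in sorted muscle progenitor cells of mouse embryos. They were chosen by name, with all of their probes, from the deposited table of probe intensities. The table holds 7 probes for these 6 genes, among 25697 probes in all, and all 6 genes were among the 8658 genes tested. Heyl, Hey1, Hes1, Nrarp and Notch3 have 1 probe each and Dtx4 has 2.

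RNA was measured on Illumina bead arrays at E17.5 in cells of the back muscle that had been sorted as positive for Vcam-1 and negative for CD31, CD45 and Sca1. The Rbpj;MyoD mutant (the Rbpj double mutant), Pax3cre/+;Rbpjflox/flox;MyoD-/- by its label, lacks MyoD and loses Rbpj in cells with Pax3-driven Cre (7 arrays, 6 samples). The DnMaml;MyoD mutant (the DnMaml double mutant), Pax3cre/+;DnMamlflox/flox;MyoD-/- by its label, lacks MyoD and carries DnMaml, a shortened Mastermind that blocks the Notch transcription complex, with the same Cre (8 arrays, 7 samples). The single mutant was MyoD-/- (18 arrays, 16 samples), and the remaining groups were MyoD+/- (4 arrays, 3 samples) and wild type (10 arrays, 9 samples). The strain is given as a mixture of C57BL/6, 129/Sv and 129/Ola for all groups. The label of the MyoD-/- embryos names no Cre, so Pax3cre itself and the Notch allele cannot be told apart in the double mutants. The labels do not say if the RNA of an array came from 1 embryo or several.

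Notch receptors are cut when a ligand on a neighbouring cell binds them, and the freed intracellular part enters the nucleus. There it joins the DNA-binding protein Rbpj and a Mastermind protein to switch on target genes. In muscle progenitors the pathway is known for holding cells back from differentiation, in part through repressors of the HES and HEY family, which oppose MyoD, the transcription factor that commits cells to muscle. Other targets act on the pathway itself: Notch3 is a receptor, Nrarp binds the Notch complex and dampens it, and Dtx4 belongs to the Deltex ubiquitin ligases.

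The start regions of Nrarp and Notch3 are shown because these are the 2 members that matched the RefSeq table of start regions (build GRCm38.p6). Each window runs from 250 bases before the start of the gene to 50 bases after it. Both genes, like Heyl, Hey1 and Dtx4, were called lower than wild type in every group without MyoD. Notch3 but not Nrarp was called lower again with each Notch allele. Capitals mark CACGTG, an E box of the kind that HES, HEY and other basic helix-loop-helix proteins bind, and CAGCTG, an E box of the kind that MyoD binds. The Nrarp window lies at chr2:25180508-25180807 on the plus strand, and the Notch3 window at chr17:32166841-32167140 on the minus strand.

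Nrarp: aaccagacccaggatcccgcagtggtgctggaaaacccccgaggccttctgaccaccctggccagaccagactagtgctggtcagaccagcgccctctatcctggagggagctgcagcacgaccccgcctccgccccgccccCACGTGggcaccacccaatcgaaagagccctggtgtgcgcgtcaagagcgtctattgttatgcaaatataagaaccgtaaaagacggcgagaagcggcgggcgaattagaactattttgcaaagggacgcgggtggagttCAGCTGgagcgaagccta
Notch3: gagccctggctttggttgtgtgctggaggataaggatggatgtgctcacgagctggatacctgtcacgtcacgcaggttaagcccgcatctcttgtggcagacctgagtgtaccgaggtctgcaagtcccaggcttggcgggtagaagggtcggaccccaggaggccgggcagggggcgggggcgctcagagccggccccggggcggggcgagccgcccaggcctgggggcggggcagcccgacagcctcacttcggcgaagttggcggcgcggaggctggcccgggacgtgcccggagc

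Both strands of these windows were searched for TGGGAA, the core of the Rbpj site, for the longer GTGGGAA, which contains it, and for the E boxes CAGCTG and also CACCTG, besides CACGTG and lastly CACGCG. The Rbpj core TGGGAA was found 0 times in the Nrarp window and 0 times in the Notch3 window, and it is present in 25.6% of all 32851 windows of the same length, with GTGGGAA in 6.38%. The Nrarp window holds 1 CACGTG, present in 7.15% of all windows, and 1 CAGCTG, present in 16.3%. The Notch3 window holds none of the 6 motifs, of which CACCTG is present in 20.2% and CACGCG in 9.27% of all windows. The base composition was 60% G or C for Nrarp and 70% for Notch3. These are matches of letters in short windows and describe neither binding nor its absence.

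The median intensity of an array ran from 64.1 to 250 and the number of detected probes from 8761 to 11819. The precision of a change depends on the number of samples and on the spread of the gene between them. The 7 chips were treated as 6 chip sets, because arrays at the same position of chips 6 and 7 were averaged to 1 sample. After group and chip were removed, 8 of those 12 arrays correlated best with their partner, but the MyoD+/- pair (r = -0.142) and the Rbpj;MyoD pair (r = 0.053) did not correlate and differ in sex, so these 2 samples are means of separate embryos. Levels are log2 intensities after normalisation, and a level is compared only with other levels of the same probe. Myod1, the gene removed, averaged 8.97 in Rbpj;MyoD, 9.26 in DnMaml;MyoD and 9.28 in MyoD-/-, against 10.84 in MyoD+/- and 11.15 in wild type. Its probe was detected in all 47 arrays, and where it lies relative to the deleted part is not stated in the labels. The 3 Rbpj probes were detected in 0 arrays, and the Maml1 probe, which cannot be assumed to see DnMaml, was called in none of the comparisons, so neither Notch allele could be checked in these data. Vcam1, the sorted marker, was detected in all 47 arrays. It averaged 13.67 in Rbpj;MyoD, 14.13 in DnMaml;MyoD, 14.36 in MyoD-/-, 13.94 in MyoD+/- and 13.76 in wild type. With limma, MyoD-/- was called higher than wild type (log2 change 0.70, adjusted p = 8.69e-06), as was DnMaml;MyoD (0.37, adjusted p = 0.0253). Rbpj;MyoD was called lower than MyoD-/- (-0.58, adjusted p = 0.00064) and was not called against wild type (0.11, adjusted p = 0.67). The defining progenitor markers Pax7 and Myf5 were each detected in 2 arrays and Pax3 in 0, while Msc, Itga7 and Megf10 were detected in all 47.

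Heyl, a HEY family repressor, was detected in most arrays of the 3 groups without a Notch allele and in 0 double mutant arrays. In the Rbpj double mutant its level ran from 5.08 over a median of 5.26 to 6.21, in the DnMaml double mutant from 5.08 over 5.35 to 6.08, and in MyoD-/- from 6.36 over 7.11 to 8.04. The 3 MyoD+/- samples had 7.85, 8.17 and 8.37, and wild type ran from 8.30 over 8.83 to 9.65. The wild type samples all lay above the MyoD-/- samples. The probe was detected in all MyoD-/- samples but replicates 11 and 12, both at 6.46, and these 2 cannot be ranked against the double mutants.

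The Heyl probe was detected in 0 of 7 Rbpj double mutant and 0 of 8 DnMaml double mutant arrays, against 16 of 18 MyoD-/- arrays and all 10 wild type arrays. Its change in MyoD-/- against wild type was -1.86 ± 0.17 (log2 change ± SE of limma's fit, 3.63-fold lower, adjusted p = 4.4e-10). For the double mutants a lower bound takes the place of the fold, since undetected levels have no order. It sets the mean of the group with the signal against a ceiling for undetected probes, taken array by array and without adjustment for chip. By that measure Heyl was 1.33-fold lower in the Rbpj double mutant than in MyoD-/- (adjusted p = 2.75e-08 in the fit) and 1.37-fold lower in the DnMaml double mutant than in MyoD-/- (adjusted p = 5.03e-07). The MyoD-/- mean includes replicates 11 and 12, in which the probe was undetected, so these values are not strict bounds. Against wild type the bounds were at least 4.51-fold lower in the Rbpj double mutant and at least 4.63-fold lower in the DnMaml double mutant.

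Hey1, the second HEY family repressor, ran from 10.55 over 10.81 to 11.40 in the Rbpj double mutant, from 9.48 over 10.68 to 11.20 in the DnMaml double mutant and from 11.03 over 11.76 to 12.52 in MyoD-/-. The MyoD+/- samples had 12.61, 12.61 and 12.68, and wild type ran from 12.66 over 12.95 to 13.28. MyoD-/- and wild type samples did not overlap, while the double mutants overlapped the lower MyoD-/- samples. Hey1 was 2.29-fold lower in MyoD-/- than in wild type (log2 change -1.20 ± 0.13, adjusted p = 6.35e-09). In the double mutants Hey1 fell by a further 0.97 ± 0.15 with Rbpj (adjusted p = 5.29e-06) and by a further 1.16 ± 0.14 with DnMaml (adjusted p = 1.64e-07), each against MyoD-/-.

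Hes1, the repressor that gives the HES family much of its known role in progenitors, changed by less than 2-fold in each comparison. Its level ran from 9.24 over 9.53 to 9.79 in the Rbpj double mutant, from 8.96 over 9.26 to 9.73 in the DnMaml double mutant and from 9.44 over 9.86 to 10.35 in MyoD-/-. The MyoD+/- samples had 10.03, 10.14 and 10.18, and wild type ran from 9.77 over 10.13 to 10.42. Neighbouring groups overlapped throughout, and among the groups compared only DnMaml;MyoD and wild type did not overlap. In MyoD-/- against wild type the change was -0.24 ± 0.10 and did not pass the threshold (95% interval -0.45 to -0.03, adjusted p = 0.0869). Hes1 fell by 0.61 ± 0.11 in the DnMaml double mutant against MyoD-/- (adjusted p = 0.000219) and by 0.39 ± 0.12 in the Rbpj double mutant against MyoD-/- (adjusted p = 0.0178). The call for Rbpj;MyoD was lost without its replicate 4 (-0.30, adjusted p = 0.114) or its replicate 5 (-0.35, adjusted p = 0.0752), and when arrays were scaled to a common median in place of quantile normalisation (-0.45, adjusted p = 0.0853).

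Notch3, a receptor that is itself switched on by Notch, took 3 levels. It ran from 9.25 over 9.37 to 9.54 in the Rbpj double mutant, from 8.63 over 9.06 to 9.47 in the DnMaml double mutant and from 9.72 over 10.52 to 10.81 in MyoD-/-. The MyoD+/- samples had 11.42, 11.73 and 11.86, and wild type ran from 11.53 over 11.83 to 12.13. The samples fell into 3 separate bands, with both double mutants lowest, MyoD-/- between them and the rest, and MyoD+/- together with wild type highest. In MyoD-/- its change from wild type was -1.46 ± 0.12 (2.75-fold lower, adjusted p = 1.25e-11). It fell by a further 1.10 ± 0.13 with Rbpj (2.14-fold lower than MyoD-/-, adjusted p = 1.67e-07) and by a further 1.33 ± 0.13 with DnMaml (2.52-fold lower than MyoD-/-, adjusted p = 4.42e-09). Against wild type it was 5.89-fold lower in the Rbpj double mutant and 6.92-fold lower in the DnMaml double mutant (adjusted p = 1.06e-14 and 1.86e-17).

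**Figure D1:**
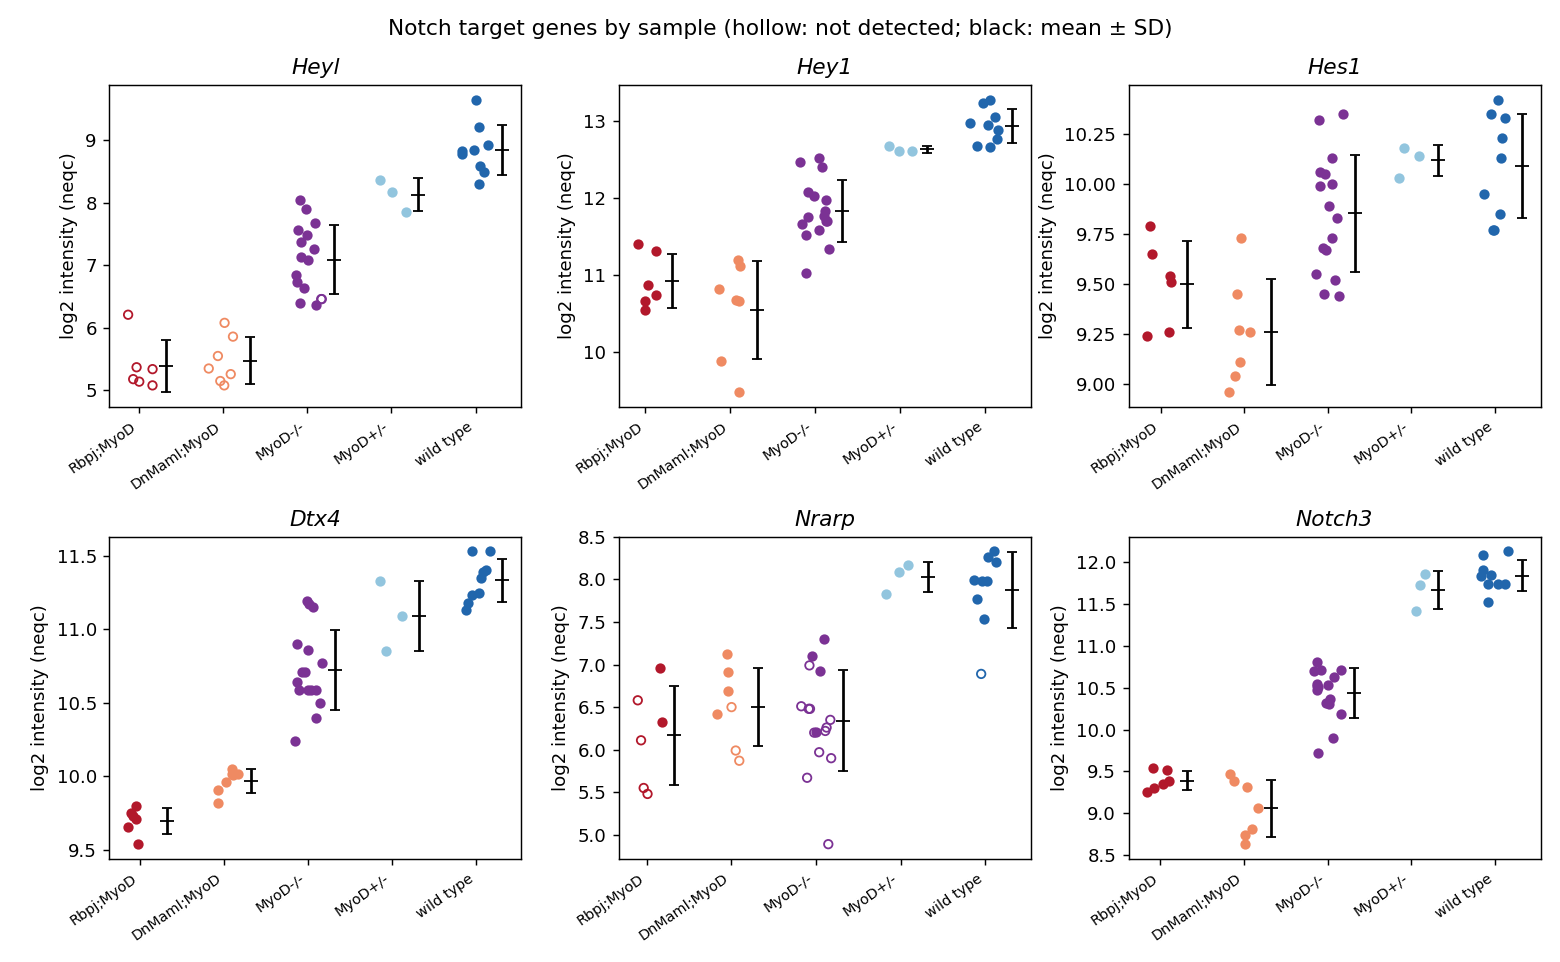
Log2 intensity of the probe used for each gene in every sample (points), by genotype, with the group mean ± SD in black. Hollow points are samples in which the probe was detected in no array. Heyl was detected in 0 double mutant arrays, Notch3 fell into 3 bands, and Nrarp in the double mutants lay within the range of MyoD-/-.

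Dtx4, the Deltex family member, had a small spread in the double mutants. It ran from 9.54 over 9.72 to 9.80 in the Rbpj double mutant, from 9.82 over 10.01 to 10.05 in the DnMaml double mutant and from 10.24 over 10.67 to 11.19 in MyoD-/-. The MyoD+/- samples had 10.85, 11.09 and 11.33, and wild type ran from 11.13 over 11.35 to 11.53. Every double mutant sample lay below every MyoD-/- sample, while the highest MyoD-/- samples reached the wild type range. Its change in MyoD-/- relative to wild type was -0.58 ± 0.09 (1.49-fold lower, adjusted p = 1.38e-05). It fell by a further 1.0 ± 0.11 in the Rbpj double mutant against MyoD-/- (adjusted p = 7.2e-09) and by a further 0.79 ± 0.10 in the DnMaml double mutant against MyoD-/- (adjusted p = 4.65e-07).

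The other Dtx4 probe, tested over all detected probes, moved the same way. Its changes were -0.97 ± 0.12 in Rbpj;MyoD against MyoD-/-, -0.78 ± 0.11 in DnMaml;MyoD against MyoD-/- and -0.49 ± 0.10 in MyoD-/- against wild type (adjusted p = 6.74e-04 for this last one).

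Nrarp, the feedback inhibitor of the Notch complex, was lower in MyoD-/- than in wild type and was not called lower again in either double mutant. It ran from 5.48 over 6.22 to 6.96 in the Rbpj double mutant, from 5.87 over 6.50 to 7.12 in the DnMaml double mutant and from 4.89 over 6.31 to 7.30 in MyoD-/-. The MyoD+/- samples had 7.83, 8.09 and 8.17, and wild type ran from 6.89 over 7.98 to 8.33. All double mutant samples lay within the range of MyoD-/-, and so did the lowest wild type sample, in which the probe was not detected.

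With MyoD lost, Nrarp fell by 1.43 ± 0.20 on the log2 scale relative to wild type in the fit (adjusted p = 1.64e-06). Since most MyoD-/- arrays did not detect it, the size of this fall is uncertain, and with each undetected MyoD-/- array raised to its ceiling it was 2.03-fold. Against MyoD-/- its change was -0.08 ± 0.23 in the Rbpj double mutant (95% interval -0.55 to 0.39, adjusted p = 0.848) and 0.02 ± 0.21 in the DnMaml double mutant (95% interval -0.41 to 0.46, adjusted p = 0.968). The probe was detected in 3 of 7 Rbpj double mutant and 4 of 8 DnMaml double mutant arrays, against 6 of 18 MyoD-/- arrays and 9 of 10 wild type arrays. A further fall in the double mutants could therefore be measured against few MyoD-/- arrays.

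MyoD-/- against wild type addresses the effect of MyoD loss alone on the 6 genes, of which 5 were called lower at an adjusted p under 0.05 and 0 higher, with Hes1 not called. Over all genes tested 22.1% were called, 10.7% higher and 11.4% lower. The median change of the 6 genes was -1.31, against -0.02 for all genes tested. The groups did not overlap for 3 of the 6, Heyl, Hey1 and Notch3, and for 0.762% of all genes. Arrays scaled to a common median in place of quantile normalisation gave 31.6% of all calls as lower, against 51.5% with quantile normalisation, and moved the median change of all genes to 0.08. The 6 genes kept their direction under it.

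In Rbpj;MyoD against MyoD-/-, which asks what the loss of Rbpj adds where MyoD is absent, 5 of 6 genes were called lower and 0 higher, with Nrarp not called. Over all genes 20.1% were called, 10.2% higher and 9.92% lower. The median change of the 6 genes was -0.99, or -0.69 with Heyl at its bound, against -0.02 for all genes. Dtx4 and Notch3 did not overlap between the groups, and neither did the levels of Heyl, for which 2 MyoD-/- samples and every double mutant sample were undetected, beside 1.76% of all genes by level.

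In DnMaml;MyoD against MyoD-/-, the matching comparison for a block of Mastermind, the same 5 of 6 genes were called lower and 0 higher, with Nrarp again not called. Over all genes 8.81% were called, 5.39% higher and 3.42% lower. The median change was -0.98, or -0.70 with Heyl at its bound, against -0.01 for all genes. Dtx4 and Notch3 did not overlap, and the same limit holds for Heyl, beside 0.705% of all genes by level. Both double mutants were set against the same MyoD-/- samples, so these 2 sets of changes share them.

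**Figure D2:**
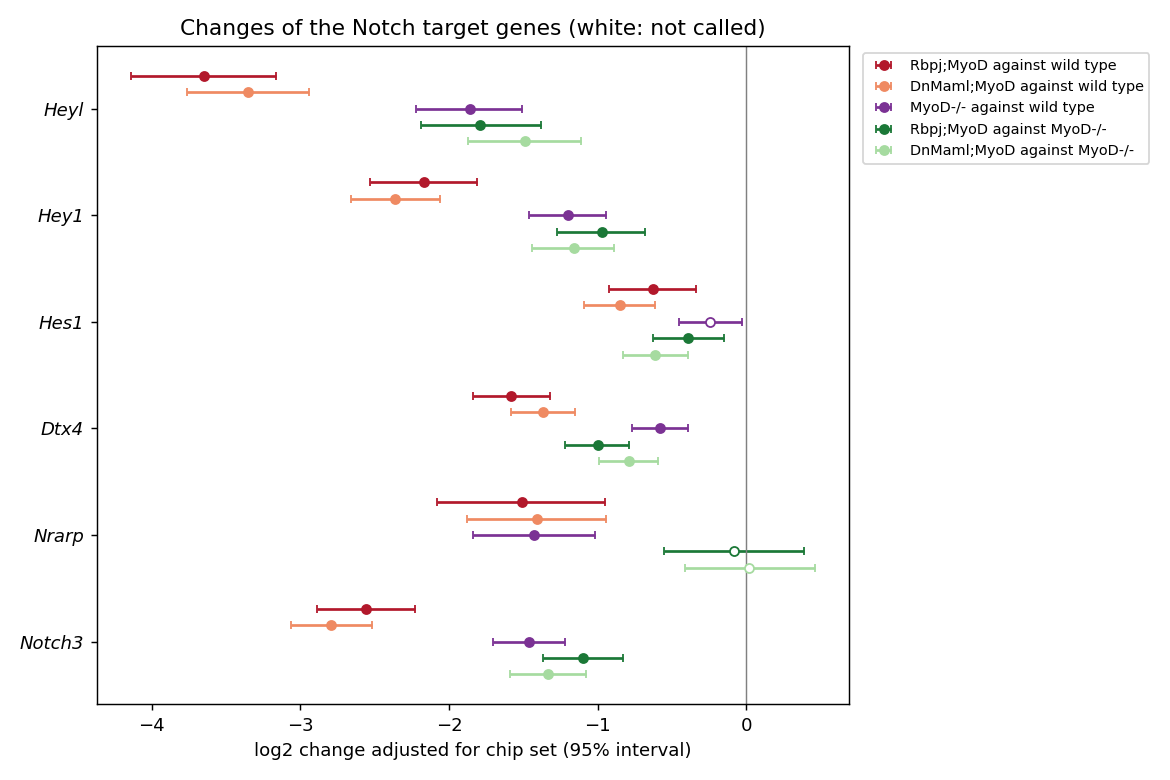
Log2 change of each gene adjusted for chip set (points) with its 95% interval (bars), in 5 comparisons. White points did not pass an adjusted p of 0.05. Hes1 in MyoD-/- against wild type and Nrarp in both double mutants against MyoD-/- are white, and fitted values of Heyl in the double mutants rest on undetected levels.

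Against wild type all 6 genes were called lower in both double mutants. For Rbpj;MyoD the calls covered 20.1% of all genes (10.2% higher, 9.88% lower). The groups did not overlap for 4 of the 6, against 6.29% of all genes. For DnMaml;MyoD they covered 22.4% of all genes (11.1% higher, 11.3% lower), and 5 of the 6 did not overlap, against 3.67% of all genes. Hey1 was 4.50-fold lower in Rbpj;MyoD and 5.13-fold lower in DnMaml;MyoD than in wild type. Dtx4 was 2.99-fold and Hes1 1.55-fold lower in Rbpj;MyoD than in wild type. In DnMaml;MyoD the matching values were 2.58-fold for Dtx4 and 1.81-fold for Hes1. With undetected arrays at their ceiling Nrarp was 2.12-fold lower in Rbpj;MyoD and 2.16-fold lower in DnMaml;MyoD than in wild type.

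Set against each other, the double mutants were called different in none of the 6 genes (0 called with limma, and 0 at an unadjusted p under 0.05), while 3.94% of all genes were called, 1.59% higher and 2.34% lower in Rbpj;MyoD. The change in Rbpj;MyoD against DnMaml;MyoD was 0.19 ± 0.18 for Hey1 (95% interval -0.18 to 0.56), 0.22 ± 0.15 for Hes1 (-0.07 to 0.52) and 0.23 ± 0.17 for Notch3 (-0.10 to 0.57). Dtx4 was at -0.21 ± 0.13 (-0.48 to 0.05, adjusted p = 0.484), and it was the only 1 of the 6 whose samples did not overlap between these groups, as was the case for 2.25% of all genes. Nrarp was at -0.11 ± 0.28 (-0.68 to 0.47), and Heyl was undetected in both groups. Differences within these intervals are possible, so the 2 alleles are not shown to act alike.

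MyoD+/- against wild type tests loss of 1 MyoD copy, with 3 samples. None of the 6 genes was called, and 0 of the 8658 genes were (0%), with limma. At an unadjusted p under 0.05 there were 0 of the 6 and 314 of all genes. The largest of the 6 changes was that of Heyl at -0.56 ± 0.28 (95% interval -1.14 to 0.01, unadjusted p = 0.0555), which leaves room for a fall of over 2-fold. Notch3 was at -0.23 ± 0.19 (-0.61 to 0.16), Dtx4 at -0.28 ± 0.15 (-0.58 to 0.02) and Hes1 at -0.14 ± 0.17 (-0.48 to 0.20). Hey1 was at -0.08 ± 0.21 (-0.50 to 0.34) and Nrarp at -0.02 ± 0.33 (-0.68 to 0.64). The groups overlapped for all 6, and did not for 1.51% of all genes.

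With 1 copy of MyoD left as the baseline, 4 of the 6 genes were called lower in MyoD-/- than in MyoD+/-, against 3.37% of all genes called, 1.28% higher and 2.09% lower. Notch3 was at -1.23 ± 0.18 (adjusted p = 2.11e-05), Nrarp at -1.41 ± 0.30 (adjusted p = 0.00345), Heyl at -1.30 ± 0.26 (adjusted p = 0.00171) and Hey1 at -1.12 ± 0.19 (adjusted p = 0.000293). Dtx4 (-0.30 ± 0.14, adjusted p = 0.382) and Hes1 (-0.10 ± 0.16, adjusted p = 0.92) were not called. Hey1, Nrarp and Notch3 did not overlap between the groups, as was the case for 4.13% of all genes. The call of Hey1 was lost without a term for chip (-0.80, adjusted p = 0.061).

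Ordered from low to high, Heyl, Hey1, Notch3 and Dtx4 had the same sequence of genotypes apart from the order of the double mutants, namely both double mutants, then MyoD-/-, then MyoD+/-, then wild type. For these 4 genes neither the step between the double mutants nor that between MyoD+/- and wild type was called, and for Dtx4 the step between MyoD-/- and MyoD+/- was not called either. For Hes1 the called step was that between MyoD-/- and each double mutant, and the 3 groups with the highest means, 9.85 ± 0.29 in MyoD-/-, 10.12 ± 0.08 in MyoD+/- and 10.09 ± 0.26 in wild type (SD, n = 16, 3 and 9), were not separated. For Nrarp the called step was that between MyoD-/- and MyoD+/-. Whether 2 of the genes differ from each other in these steps was not tested, since levels and changes of different probes are not on one scale.

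Within single chip sets the falls recurred. In all 5 chip sets that hold both groups, Heyl, Hey1, Dtx4, Nrarp and Notch3 were lower in MyoD-/- than in wild type, with differences of group means from -2.39 to -1.53 for Heyl, -1.59 to -0.98 for Hey1 and -1.73 to -1.01 for Notch3. Hes1 was lower in 4 of 5, with a highest value of 0.01. In Rbpj;MyoD against MyoD-/- Hey1, Hes1, Dtx4 and Notch3 were lower in 4 of 4 chip sets, with Dtx4 at -1.29 to -0.87. In DnMaml;MyoD against MyoD-/- they were lower in 5 of 5, but the size varied for Hey1 (-2.07 to -0.46) and Hes1 (-1.37 to -0.06). Heyl was lower in the 3 chip sets with a detected array for the Rbpj double mutant and in the 4 for the DnMaml double mutant, while on chip 4 neither group had one. Nrarp had no common direction. Of the chip sets with a detected array it was lower in 1 of 2 in the Rbpj double mutant and in 3 of 4 in the DnMaml double mutant, each against MyoD-/-.

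**Figure D3:**
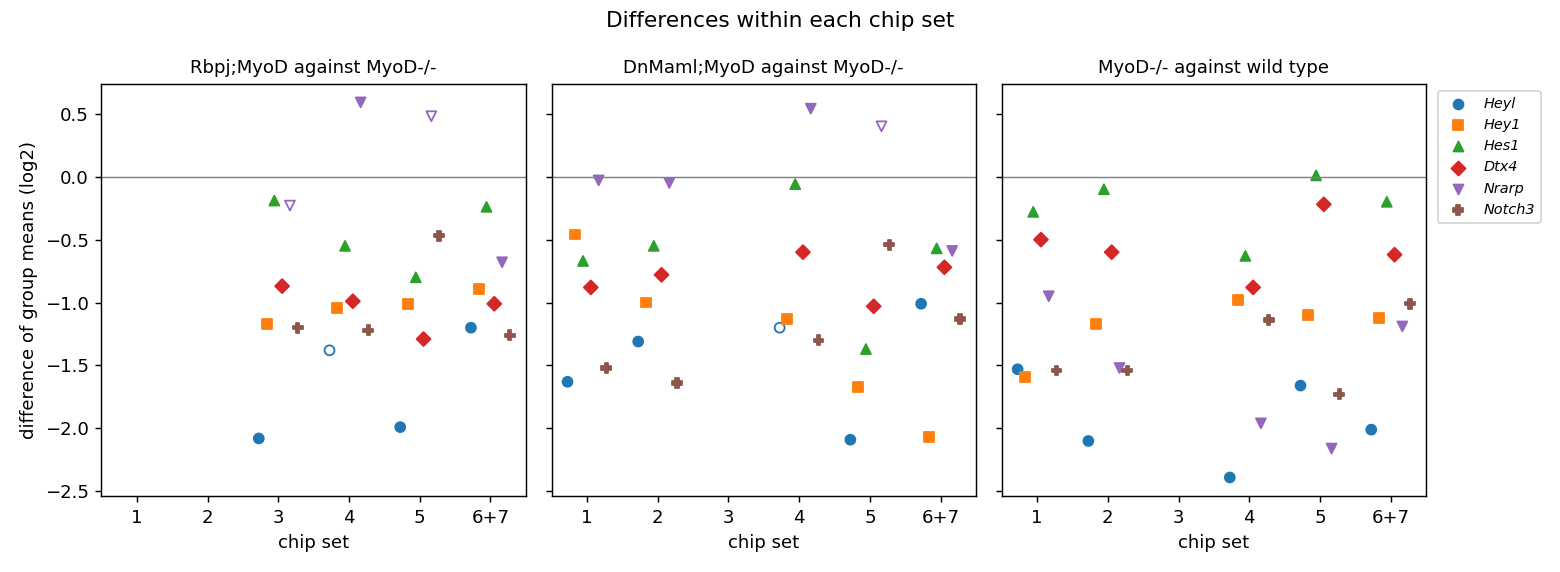
Difference of group means (log2) within each chip set for the 6 genes, in 3 comparisons. A chip set appears where it holds both groups, and white points mark those where no array of either group detected the probe. Nrarp lies on both sides of 0 in the 2 comparisons with MyoD-/-, and the values of Hey1 in DnMaml;MyoD against MyoD-/- run from -2.07 to -0.46.

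The difference of each change between the late chips (4 to 7) and the early ones was tested across all genes. None of the 6 genes was called in any of the 3 comparisons, beside 0.208% of all genes for MyoD-/- against wild type, 0.0231% for DnMaml;MyoD against MyoD-/- and 0% for Rbpj;MyoD against MyoD-/-. The largest such difference among the 6 was that of Hey1 in DnMaml;MyoD against MyoD-/-, with a change of -1.62 on late and -0.73 on early chips (difference -0.89 ± 0.24, unadjusted p = 0.000664, adjusted p = 0.205). Notch3 in the same comparison went the other way, with -0.99 on late and -1.58 on early chips (difference 0.59 ± 0.23, unadjusted p = 0.0134, adjusted p = 0.413).

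The genes most like each member were ranked by Pearson's r over the 41 samples after chip sets were centred, which includes the differences between genotypes. Heyl was closest to Ncald, a calcium sensor (r = 0.954), then to Dtx4 (0.946) and Notch3 (0.935). Every value of r with Heyl includes the double mutant samples, in which Heyl was undetected and its levels have no order. Hey1 was closest to Ntn5, a netrin family member (0.938), then to Heyl (0.935) and Notch3 (0.93). Notch3 was closest to Heyl (0.935), Ntn5 (0.933) and Hey1 (0.93). These 3 members and Dtx4 were thus each among the nearest genes of at least 1 other member out of 8658.

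Ntn5, near both Hey1 and Notch3, had log2 changes of -2.09 ± 0.18 in the Rbpj and -1.63 ± 0.17 in the DnMaml double mutant against MyoD-/- (adjusted p = 1.54e-10 and 2.81e-08). Between MyoD-/- and wild type its change was -1.55 ± 0.16 (adjusted p = 3.36e-09). Dtx4 was closest to Ank1, an ankyrin that links membrane and cytoskeleton (0.952), then to Heyl (0.946) and to Itga7, the laminin receptor subunit of muscle cells (0.915). Hes1 was closest to Mdfic (0.821), Dtx4 (0.814) and Spcs3, a subunit of the signal peptidase (0.792). Nrarp was closest to Calcr, the calcitonin receptor (0.853), Lamc1, a laminin chain (0.836), and Prkcb, a protein kinase C (0.811). Nrarp was undetected in most arrays without MyoD and Calcr in all of them, so these values rest in part on levels without an order. Prkcb, like Nrarp, fell in MyoD-/- against wild type (-1.76 ± 0.11, adjusted p = 3.6e-14), with -0.29 ± 0.13 in Rbpj;MyoD (adjusted p = 0.117) and -0.41 ± 0.12 in DnMaml;MyoD (adjusted p = 0.0276), each against MyoD-/-. Between the members themselves r ran from 0.411 for Hes1 with Nrarp to 0.946 for Heyl with Dtx4, and all of these values share the same samples and arrays.

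Of the 7 other HES and HEY family genes on the array, Hes2, Hes3, Hes5, Hes7, Hey2 and Helt were detected in 0 arrays. Hes6, which is known to favour differentiation and to oppose Hes1, was detected in all 47. It fell in MyoD-/- against wild type (-0.34 ± 0.09, adjusted p = 0.00456) and rose in DnMaml;MyoD against MyoD-/- (0.40 ± 0.09, adjusted p = 0.00425), with 0.02 in Rbpj;MyoD against MyoD-/-. Both of these calls were lost under scaling to a common median (adjusted p = 0.414 and 0.422).

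The remaining Notch pathway was followed with a list of 43 further components, of which 38 are on the array and 29 were tested. In MyoD-/- against wild type 2 were higher and 6 lower, where 22.1% of all genes were called. In DnMaml;MyoD against MyoD-/- 1 was higher and 2 lower, where 8.81% of all genes were called. In Rbpj;MyoD against MyoD-/- 2 were higher and 6 lower, where 20.1% of all genes were called. Whether the list differs from all genes in these shares was not tested. The medians over the 29 were -0.01, -0.05 and 0, close to those of all genes. In MyoD+/- against wild type 0 of 29 were called.

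Among the receptors, Notch1 fell in MyoD-/- against wild type (-0.85 ± 0.09, adjusted p = 7.97e-09), and it fell again in the Rbpj double mutant (-0.32 ± 0.11, adjusted p = 0.029) and in the DnMaml double mutant (-0.46 ± 0.10, adjusted p = 0.00161), each against MyoD-/-. Notch4 fell in MyoD-/- against wild type (-0.57 ± 0.12), and the Notch2 probes were detected in 0 arrays. Of the ligands, Dll1 fell in MyoD-/- against wild type (-0.85 ± 0.12, adjusted p = 1.97e-06). Against MyoD-/- it fell in the Rbpj double mutant (-0.45 ± 0.14, adjusted p = 0.0188) and rose in the DnMaml double mutant (0.58 ± 0.13, adjusted p = 0.0024). The double mutants differed from each other in Dll1 by -1.03 ± 0.17 (Rbpj;MyoD against DnMaml;MyoD, adjusted p = 0.00014). That call was lost without a term for chip (-0.65, adjusted p = 0.0693) and with only the 2 groups fitted (-1.07, adjusted p = 0.0847). Jag2 was called lower in Rbpj;MyoD against MyoD-/- (adjusted p = 0.00611), where it was detected in 0 of 7 Rbpj double mutant and 9 of 18 MyoD-/- arrays.

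Of the enzymes that modify or cut the receptor, 1 of 3 glycosyltransferases and 2 of 6 proteases tested fell in MyoD-/- against wild type and 0 rose. These were Mfng, a fringe glycosyltransferase (-1.54 ± 0.19, adjusted p = 8.83e-08), and the gamma-secretase components Psen2 (-0.95 ± 0.14) and Aph1b (-0.73 ± 0.19). The Groucho corepressors Tle2 (0.79 ± 0.11) and Tle3 (0.69 ± 0.19) rose in the same comparison. In the Rbpj double mutant Tle2 (0.42 ± 0.12) and Dtx3, a relative of Dtx4 (0.55 ± 0.11), rose relative to MyoD-/-. Tle3 (-0.65 ± 0.21) and Tle4 (-0.39 ± 0.11) fell there. Fbxw7, which marks the Notch intracellular part for degradation, fell in the Rbpj double mutant (-0.41 ± 0.12) and in the DnMaml double mutant (-0.37 ± 0.11), each against MyoD-/-. Every pathway call in a double mutant against MyoD-/- was lost under at least 1 alternative setting. With a replicate block in place of chip set the change of Notch1 in the Rbpj double mutant was 0.14 (adjusted p = 0.503). Replicate numbers do not pair the samples and that setting holds no chip term, so this shift cannot be told apart from chip effects. In MyoD-/- against wild type the calls of Notch4, Aph1b and Tle3 were also lost under at least 1 setting. Those of Notch1, Dll1, Mfng, Psen2 and Tle2 there were kept.

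**Figure D4:**
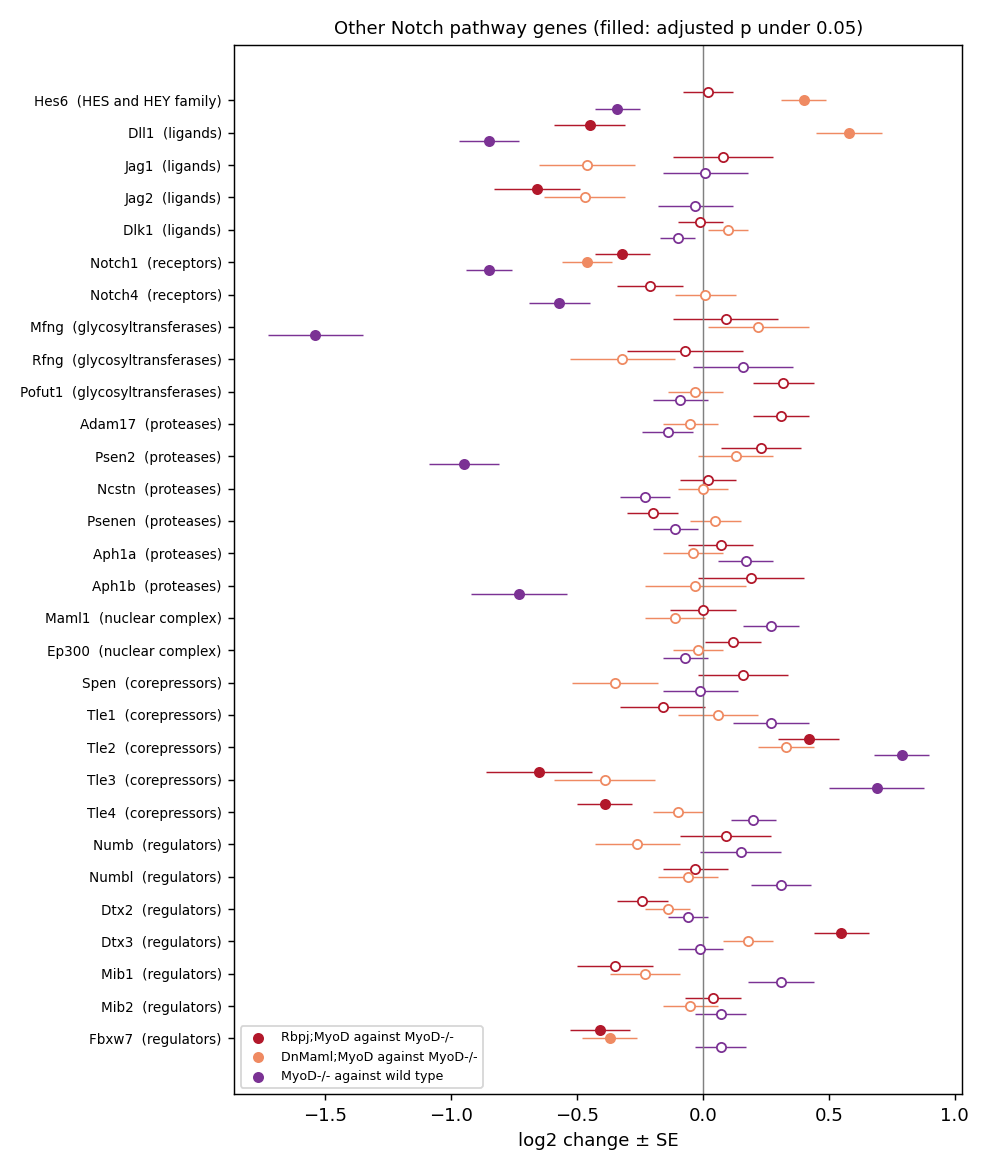
Log2 change ± SE of Hes6 and the 29 further Notch pathway genes tested, in 3 comparisons, with filled points for an adjusted p under 0.05. Dll1 lies on opposite sides of 0 in the 2 double mutants. Mfng has the lowest value, at -1.54 in MyoD-/- against wild type, and most MyoD-/- arrays did not detect it. The value of Jag2 in Rbpj;MyoD rests on undetected levels.

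Calcr, the collagen genes Col5a1, Col5a3, Col6a1 and Col6a2, and Msc are known from muscle cells as linked to Notch activity. Calcr was detected in 0 of 7 Rbpj double mutant, 0 of 8 DnMaml double mutant and 0 of 18 MyoD-/- arrays, against 4 of 4 MyoD+/- and 9 of 10 wild type arrays (adjusted p = 2.18e-14 for MyoD-/- against wild type). Msc, a repressor of the basic helix-loop-helix family, fell in the Rbpj double mutant (-0.82 ± 0.08, adjusted p = 6.56e-10) and in the DnMaml double mutant (-0.70 ± 0.07, adjusted p = 2.34e-08), each against MyoD-/-, and was at -0.01 in MyoD-/- against wild type. None of the 4 collagens was called lower in a double mutant against MyoD-/- or in MyoD-/- against wild type. All 4 rose in the Rbpj double mutant against MyoD-/-, Col5a1 by 0.47 ± 0.09, Col5a3 by 0.60 ± 0.17, Col6a1 by 0.44 ± 0.09 and Col6a2 by 0.65 ± 0.16. In the DnMaml double mutant Col5a3 rose by 0.66 ± 0.16 against MyoD-/-. With arrays scaled to a common median these calls were lost, at adjusted p = 0.104 for Col5a1, 0.0784 for Col5a3, 0.196 for Col6a1 and 0.149 for Col6a2 in the Rbpj double mutant and 0.0556 for Col5a3 in the DnMaml double mutant. Col5a3 also rose in MyoD-/- against wild type (0.53 ± 0.15, adjusted p = 0.0098), but was at -0.13 on chips 4 to 7 alone.

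Notch3 and Heyl are also known from pericytes and smooth muscle cells and Hey1 from endothelium, so markers of these cells were read beside them. Of 13 pericyte and smooth muscle markers 8 were tested and 4, among them Rgs5 and Myh11, were detected in 0 arrays. Their summed intensity ran from 12352 to 21904 in the Rbpj double mutant, 23128 to 36159 in the DnMaml double mutant, 16958 to 28694 in MyoD-/-, 34554 to 37652 in MyoD+/- and 25844 to 41969 in wild type. This sum, like those of the marker lists below, adds linear levels of different probes and is weighted to the brightest. It is not adjusted for chip, and the groups do not share all chips, so chip and genotype are mixed in it. For Rbpj;MyoD against MyoD-/- 3 of the 8 markers were higher and 3 lower, in DnMaml;MyoD against MyoD-/- 2 were higher and 1 lower, and in MyoD-/- against wild type 1 was higher and 2 lower. In the same order, 10.2%, 5.39% and 10.7% of all genes were higher and 9.92%, 3.42% and 11.4% lower. Tagln was lower in all 3 of these comparisons (-1.15, -1.02 and -0.78), while Abcc9 was higher in both double mutants than in MyoD-/- (1.37 and 0.70).

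Of 10 endothelial markers 6 were tested, with Kdr and Tie1 detected in 0 arrays, Cdh5 in 1 and Pecam1 in 9, while Tek, Egfl7 and Esam were detected in all 47. Egfl7 fell in MyoD-/- against wild type (-0.63 ± 0.09, adjusted p = 1.32e-06) and rose in DnMaml;MyoD against MyoD-/- (0.47 ± 0.09, adjusted p = 0.000581), and the other 5 were called in neither, while 0 of 6 were called in Rbpj;MyoD against MyoD-/-. Of all genes 22.1%, 8.81% and 20.1% were called in these comparisons, in that order. The sum of the 6 markers ran from 2318 to 3758 in the Rbpj double mutant, 3235 to 4626 in the DnMaml double mutant, 2408 to 4549 in MyoD-/-, 3974 to 4697 in MyoD+/- and 3131 to 4978 in wild type. Of the 7 leukocyte markers 5, Ptprc among them, were detected in 0 arrays and 1 was tested, with a sum of 55 to 123 in the Rbpj double mutant, 60 to 83 in the DnMaml double mutant, 21 to 157 in MyoD-/-, 85 to 132 in MyoD+/- and 32 to 115 in wild type.

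Where 5 of the 6 target genes were called lower, in the double mutants against MyoD-/-, some fibroblast markers were called higher, mainly in the Rbpj double mutant. Their sum over 7 of 8 genes ran from 53853 to 92104 in the Rbpj double mutant, 43450 to 76178 in the DnMaml double mutant, 29355 to 72914 in MyoD-/-, 38497 to 48245 in MyoD+/- and 23203 to 50663 in wild type. In Rbpj;MyoD against MyoD-/- 5 of 7 were higher, where 10.2% of all genes were higher. In DnMaml;MyoD against MyoD-/- 1 of 7 was higher, where 5.39% of all genes were higher. Erythroid markers went lower in the Rbpj double mutant, where 3 of 3 fell against MyoD-/-, beside 9.92% of all genes. Their sums were 4832 to 17599 in the Rbpj double mutant and 9707 to 52376 in MyoD-/-. Of the 2 Schwann and neural crest markers tested, out of 10, the sum was 963 to 2211 in the Rbpj double mutant, 813 to 2022 in the DnMaml double mutant, 273 to 927 in MyoD-/-, 674 to 1236 in MyoD+/- and 307 to 1041 in wild type. The part of these other cells in the changes of the 6 genes was not tested.

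Part of the muscle progenitor markers were lower in the double mutants than in MyoD-/-, where 5 of the 6 target genes were called lower. Of 10 markers tested, 8 were lower and 0 higher in the Rbpj double mutant against MyoD-/-. Among these 8 were Vcam1, the sorted marker (-0.58 ± 0.12), and Myod1, the gene removed in both groups (-0.37 ± 0.12). In the DnMaml double mutant against MyoD-/- 4 of the 10 were lower and 0 higher, and neither Vcam1 nor Myod1 was called. The shares of all genes called lower in these 2 comparisons were 9.92% and 3.42%. In MyoD-/- against wild type, where 10.7% of all genes were higher and 11.4% lower, 4 of the 10 markers were higher and 3 lower. Vcam1 was among the higher ones, and Myod1, removed by the genotype, was among the lower ones. Their sum ran from 38807 to 49696 in the Rbpj double mutant, 45128 to 66423 in the DnMaml double mutant, 61878 to 89801 in MyoD-/-, 68199 to 71394 in MyoD+/- and 65100 to 80374 in wild type. In sorted bulk RNA, fewer progenitor cells in the sample and less of a transcript per cell cannot be told apart. Of the 12 muscle differentiation genes tested, the calls were 10 higher and 1 lower in the DnMaml double mutant and 2 higher and 4 lower in the Rbpj double mutant, each against MyoD-/-. The shares of all genes called higher there were 5.39% and 10.2%, in that order. Set against each other, 0 of these 12 genes were called higher and 9 lower in Rbpj;MyoD than in DnMaml;MyoD. The shares of all genes were 1.59% higher and 2.34% lower.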

How the data were processed

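The deposited table gives each probe's intensity on every array, linear and with no scaling between arrays, beside a detection p-value. Per the submitters' processing notes, the authors exported it with GenomeStudio 2010.1. A second deposited table of processed intensities was used as an alternative (floor of 16). Of 25697 probes 23978 carry 1 gene symbol, 0 several and 1719 none, and 23962 matched RefSeq by gene number.

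The background was removed with limma 3.58.1 (R 4.3.3) from the detection p-values (798 negative control steps), and an offset of 16 was added. Arrays were quantile-normalised on the linear scale and log2 was then taken. Probes at a detection p under 0.01 in at least 4 arrays were kept (12482, of which 718 are unnamed), and the brightest was used for 2244 genes with several. The 6 position pairs of chips 6 and 7 were averaged. One limma model (lmFit, eBayes) held the 5 genotypes plus chip set, leaving 31 residual degrees of freedom. Its p-values are two-sided and adjusted by Benjamini-Hochberg over 8658 genes. The fit was tested on simulated data.

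The 6 genes, the lists, the tests and the alternatives were chosen with earlier results of these data known. Named genes are the 6 members, Myod1, Rbpj, Maml1 and Vcam1, up to 4 called genes per pathway list and comparison with the lowest adjusted p, markers of the cell type lists, and the 3 genes most like each member. The labels do not say that arrays are separate embryos, so p-values measure the spread between these samples. Replicate numbers do not pair the samples: of 63 array pairs with one number, 7 had a correlation of residuals over 0.1 (median r -0.029).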

Additional observations from a re-analysis of the deposited data

Results flagged for a closer look

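Heyl in replicate 3 of the Rbpj;MyoD mutant, at a log2 level of 6.21, lay far above the other 5 samples of its group, the nearest of which had 5.37. The gap was 0.746 of the range of the group, above Dixon's critical value for 6 samples. The probe was not detected in that sample either, so its level has no order against the others. Of 18 groups of samples tested, 1 was marked in this way, and chance marks about 1 in 20.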

How the results depend on the processing

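The counts of the 6 genes called moved little. Over the alternatives they ran from 5 to 6 for MyoD-/- against wild type, 5 to 5 for DnMaml;MyoD and 4 to 5 for Rbpj;MyoD against MyoD-/-, 3 to 5 for MyoD-/- against MyoD+/-, 6 to 6 for DnMaml;MyoD and 5 to 6 for Rbpj;MyoD against wild type, and stayed at 0 for MyoD+/- against wild type and between the double mutants. Of 642 results for the 6 genes 619 kept their direction and their side of the threshold, 6 lost the call, 4 gained it and 13 had the opposite sign. None of the 31 called changes of these genes had the opposite sign. With 1 sample left out in turn (870 results) 2 lost the call, 1 gained it (Hes1 in MyoD-/- against wild type without MyoD-/- replicate 6, -0.30, adjusted p = 0.0303) and 15 had the opposite sign. The cause of these shifts was not tested.

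Among the 6 genes the opposite signs belong to changes that were not called. Nrarp in MyoD+/- against wild type was at 0.14 with scaled arrays, 0.15 without a chip term, 0.02 with chip as a random block and -0.10 to 0.08 with 1 sample left out. Nrarp in DnMaml;MyoD against MyoD-/- was at -0.05 with every array as a replicate, -0.05 with sex added, -0.04 on chips 1 to 3 and -0.11 to 0.12 with 1 sample left out. In Rbpj;MyoD against MyoD-/- it was at 0.13 on chips 4 to 7 and -0.22 to 0.0022 with 1 sample left out, and between the double mutants at 0.01 on chips 4 to 7, 0.01 with only the 2 groups fitted and -0.21 to 0.01 with 1 sample left out. Hes1 in MyoD+/- against wild type was at 0.03 without a chip term and Hey1 there at -0.14 to 0.01 with 1 sample left out. Among other genes, Col5a3 in MyoD-/- against wild type, called at 0.53, was at -0.13 on chips 4 to 7.

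A replicate block in place of chip set, with every array a replicate, gave Hes1 at -0.37 in MyoD-/- against wild type (adjusted p = 0.0216), -0.16 in Rbpj;MyoD against MyoD-/- (adjusted p = 0.384), 0.10 in MyoD+/- against wild type and -0.47 in MyoD-/- against MyoD+/- (adjusted p = 0.0242). It gave Nrarp at 0.0022 in Rbpj;MyoD against MyoD-/- and 0.19 in MyoD+/- against wild type, Notch1 at 0.14 in Rbpj;MyoD against MyoD-/-, where it was called at -0.32, and in MyoD-/- against MyoD+/- Hey1 at -0.54 (adjusted p = 0.122) and Dtx4 at -0.48 (adjusted p = 0.00448). With chip kept, every array a replicate and sex added, the change of Dtx4 there was -0.38 (adjusted p = 0.0486). Replicate numbers do not pair the samples and the replicate block holds no chip term. Its shifts therefore cannot be told apart from chip effects. On chips 1 to 3, an alternative chosen after seeing the data like that of averaging only the 4 chip pairs of like sex, Hes1 in Rbpj;MyoD against MyoD-/- was at -0.19 (adjusted p = 0.719). With scaled arrays Hes1 in Rbpj;MyoD against wild type was at -0.59 (adjusted p = 0.0609).

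Counts over all genes moved more, from 1914 to between 846 and 2216 for MyoD-/- against wild type, 763 to between 225 and 1416 for DnMaml;MyoD and 1742 to between 360 and 2608 for Rbpj;MyoD against MyoD-/-, 341 to between 71 and 595 between the double mutants, 292 to between 208 and 3622 for MyoD-/- against MyoD+/-, 0 to between 0 and 447 for MyoD+/- against wild type, 1939 to between 1097 and 2094 for DnMaml;MyoD and 1736 to between 777 and 2196 for Rbpj;MyoD against wild type. The replicate block, without a chip term, gave the highest counts for MyoD-/- against wild type and for each double mutant against MyoD-/-. It also gave those for MyoD-/- against MyoD+/- and MyoD+/- against wild type. Signal near background limits Heyl in the double mutants and Nrarp in every group without MyoD.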
